A study of Mus musculus with 9 samples.

Results

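Tektins and proteins of the lumen of the doublet microtubule were examined in testes of wild type and Rfx2-/- mice. The group comprised 10 genes, chosen by name as rows of the count table: the tektins Tekt1, Tekt2, Tekt3, Tekt4 and Tekt5, and Cfap45, Cfap52, Cfap53, Cfap161 and Enkur. Each of the 10 matched 1 of the 23074 genes in the table, and each passed the filter on low counts and was among the 15613 genes tested. RNA-seq was carried out on decapsulated testes of 5 wild type and 4 Rfx2-/- males at postnatal days 29 to 30, with 1 library per mouse, to ask which testis mRNAs depend on the transcription factor RFX2. The methods describe a line of mixed background, made with 129/Sv cells, C57BL/6 mice and an FVB/N Cre strain, and another backcrossed onto C57BL/6. They do not say which line supplied these testes. The mixed line kept a neomycin selection cassette, which the other line lacked. In Rfx2-/- mice a single exon that encodes most of the DNA binding domain had been deleted. For initial experiments the methods describe its excision with an ACTB-cre transgene, which is active throughout the animal. Heterozygous mice were then mated, so that the deletion was inherited and every cell type of the testis carried it.

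The axoneme of cilia and of the sperm flagellum is built of doublet microtubules, each with a complete A tubule and an incomplete B tubule attached to it. Tektins are coiled-coil proteins that polymerise into filaments running along the inside of the A tubule. CFAP53 and CFAP161 are other A tubule inner proteins, whereas CFAP45, CFAP52 and ENKUR line the B tubule. In the testis their mRNAs appear in germ cells around the time when the flagellum is assembled, and RFX factors act through the X-box, an inverted repeat of a short sequence, in promoters of ciliary genes.

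Promoter sequences were examined first, to count exact matches to X-box-like patterns. RefSeq promoter entries (GRCm38.p6, from 250 bases before to 50 bases after an annotated start) were available for 9 of the 10 members in 12 entries, and Cfap53 had none. They were searched on both strands for GTTNC followed after 3 to 5 bases by GNAAC, which occurred in 2.37% of 32851 promoter entries. The letters were chosen after the promoters had been read. Matches were present in 4 members, namely Tekt2, Tekt4, Cfap45 and Enkur. In Tekt4, both of 2 matches lay near the start, one beginning 36 bases upstream and the other at the start itself. The single Tekt4 entry (25471340 to 25471639) lies inside the gene, which begins at 25454615 in GENCODE M21. Sequence around that upstream position was not examined. A looser form, GTNNC followed after 3 to 5 bases by GNNAC, occurred in 17.2% of all entries and includes every match to the stricter form. It added Tekt1 alone among the members. Tekt3, Tekt5, Cfap52 and Cfap161 matched neither form in this window. Both forms require every fixed letter, so repeats that depart from them in a letter or in spacing were not counted.

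Stretches of 130 bases follow, from 100 bases before to 30 bases after the start, read 5′ to 3′ on the strand of the gene. They were selected as the member with 2 matches (Tekt4, chr17:25471490-25471619, plus strand), a lower member with 1 match (Cfap45, chr1:172521030-172521159, plus strand), 2 members with a match that were not called (Enkur, chr2:21205336-21205465, and Tekt2, chr4:126325659-126325788, both minus strand), a member with the looser form (Tekt1, chr11:72361853-72361982, minus strand) and the member with the lowest knockout level (Cfap161, chr7:83794810-83794939, minus strand). Capitals mark the match, or in Cfap161 the 3 copies of GCAAC. Either this sequence or its reverse complement occurred in 35.2% of all promoter entries.
Tekt4: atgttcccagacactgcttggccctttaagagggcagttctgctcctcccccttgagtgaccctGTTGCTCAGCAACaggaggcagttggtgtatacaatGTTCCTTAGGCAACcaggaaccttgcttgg
Cfap45: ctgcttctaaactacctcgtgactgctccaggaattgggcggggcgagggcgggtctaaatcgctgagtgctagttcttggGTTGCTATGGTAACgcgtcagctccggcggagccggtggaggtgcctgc
Enkur: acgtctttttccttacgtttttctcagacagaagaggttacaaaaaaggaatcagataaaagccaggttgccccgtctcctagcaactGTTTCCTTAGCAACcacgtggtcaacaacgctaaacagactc
Tekt2: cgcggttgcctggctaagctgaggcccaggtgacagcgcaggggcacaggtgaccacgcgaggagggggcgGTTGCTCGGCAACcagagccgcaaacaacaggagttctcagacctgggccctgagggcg
Tekt1: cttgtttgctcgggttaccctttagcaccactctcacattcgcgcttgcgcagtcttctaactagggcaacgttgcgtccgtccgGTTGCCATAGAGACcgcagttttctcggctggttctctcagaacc
Cfap161: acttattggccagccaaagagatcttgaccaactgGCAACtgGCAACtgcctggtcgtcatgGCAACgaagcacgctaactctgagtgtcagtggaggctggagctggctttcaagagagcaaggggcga

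Levels are given in CPM, counts corrected for the size of each library and for its TMM factor. Library totals were 13574764 to 15193330 counts in 8 libraries and 28800855 in Rfx2-/- replicate 1. Rfx2 itself averaged 549 CPM (SD 54.5) over the 5 wild type libraries but 146.1 CPM (SD 59.8) over the 4 knockout libraries, and the genotypes did not overlap. Rfx2-/- replicate 2 stood apart by gene length. Relative to the other knockout libraries, long genes (over 8 kb in exons) had a median log2 difference of -0.94 in it and short genes (below 2 kb) one of 0.62. For the members, values that moved by over 1.5 times and calls that changed without this library are given in both forms.

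Of the 10 members, 5 were called lower in Rfx2-/- testes and 0 higher, where a call required an edgeR adjusted p at or under 0.01 and a change of more than 2-fold. Across all genes tested, 3.68% were called lower and 0.826% higher. The lower members were Cfap161, Cfap53 and Tekt4, at 2.55% to 4.82% of their wild type means, and Cfap45 and Cfap52, at 28.6% and 31.3%. Enkur and Tekt1 were lower by less than 2-fold, while Tekt2, Tekt3 and Tekt5 did not pass the test. At an unadjusted p under 0.05 edgeR gave 1 higher member, Tekt2, and DESeq2 called 0 higher. The share of all genes at an unadjusted p under 0.05 was not counted, here or for the lists below. At an adjusted p of 0.05 and any fold, 7 members were lower (7.31% of all genes) and 0 higher (3.48% of all genes). Scaling by total counts instead gave 2 higher members at this limit, Tekt2 and Tekt3, and shifted the median of all genes from 0.03 to 0.16. The same 7 had every knockout library below every wild type library, as did 9.70% of all genes. The median log2 fold change was -0.28 for the 5 tektins and -1.80 for the other 5 members, against 0.03 for all genes tested. These medians were -0.11 and -1.86 without Rfx2-/- replicate 2, and 6 members were called. In these whole testes, fewer cells that express a gene and less of its mRNA per cell cannot be told apart.

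**Figure D1:**
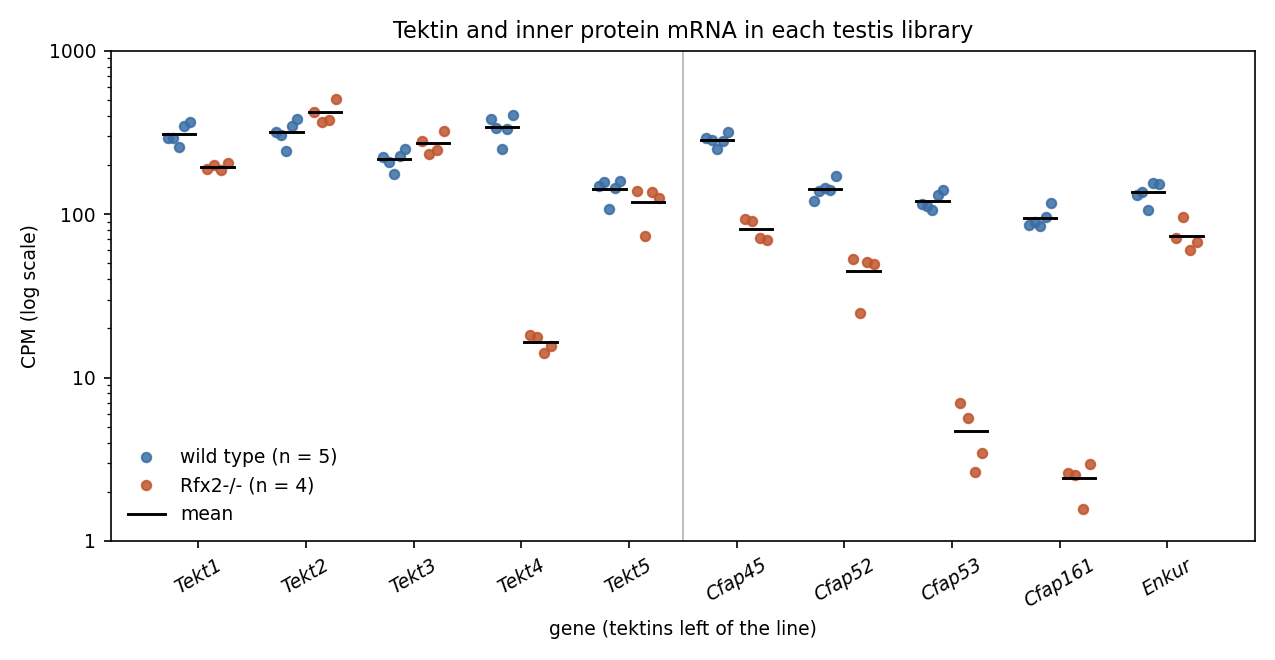
Level of each member in each library in CPM on a log axis, with 5 wild type (blue) and 4 Rfx2-/- (orange) points per gene and a black line at the mean. Tekt4, Cfap53 and Cfap161 lie far below wild type in all 4 knockout libraries, and Tekt2, Tekt3 and Tekt5 overlap between genotypes.

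Among the tektins a large difference was found for Tekt4 (chromosome 17, 25454615 to 25476602, plus strand, GRCm38), which supports the motility of sperm. Tekt4 had 384, 334, 251, 330.4 and 404 CPM in wild type replicates 1 to 5 and 18.1, 17.7, 14.2 and 15.7 CPM in Rfx2-/- replicates 1 to 4. The 4 knockout libraries were close to one another and all far below the lowest wild type library. The means differed 20.7-fold, or -4.37 as a log2 fold change (SE 0.19, edgeR adjusted p 2.14e-08). Tekt4 was thus expressed in all 4 knockout testes, at 208 counts or more per library, but at 4.82% of wild type.

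Tekt1 (chromosome 11, 72344722 to 72362442, minus strand), a filament-forming tektin of cilia and flagella, was lower to a lesser degree. Its level was 293, 294, 259, 345 and 366 CPM in wild type replicates 1 to 5 and 188, 201, 186 and 206 CPM in Rfx2-/- replicates 1 to 4. The genotypes did not overlap and the knockout libraries varied little, with a coefficient of variation of 4.99%. With a log2 fold change at -0.67 (SE 0.14, edgeR adjusted p 0.00873), Tekt1 stayed within the 2-fold limit. Its adjusted p was 2.08e-05 to 0.0364 in 14 alternative fits to the same null hypothesis of no change.

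Tekt2 (chromosome 4, 126322121 to 126325688, minus strand) is needed for the structure of the sperm flagellum. It had 317, 306, 242, 348 and 382 CPM in wild type replicates 1 to 5, and 424, 369, 375 and 508 CPM in Rfx2-/- replicates 1 to 4. The genotypes overlapped, since wild type replicate 5 exceeded 2 of the knockout libraries. Its log2 fold change was 0.39 (SE 0.16, edgeR adjusted p 0.147). In the alternatives the adjusted p was 0.0247 (total counts, 0.53) to 0.271. Exons of Tekt2 share 396 bases with Gm12945 on the opposite strand, and since the use of strand in counting is not stated, reads of the 2 genes cannot be told apart there.

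Tekt3 (chromosome 11, 63061654 to 63094964, plus strand) is another tektin of sperm. It had 222, 209.5, 177, 226 and 251 CPM in wild type replicates 1 to 5 and 282, 232, 246 and 325 CPM in Rfx2-/- replicates 1 to 4, with overlap. As for Tekt2, the knockout mean was the higher one and the test was not passed (log2 fold change 0.32, SE 0.15, edgeR adjusted p 0.194). Its adjusted p in the alternatives was 0.0358 (total counts, 0.46) to 0.347.

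Tekt5 (chromosome 16, 10357948 to 10395490, minus strand), a tektin found mainly in male germ cells, had 148, 158, 107, 145 and 159 CPM in wild type replicates 1 to 5. In Rfx2-/- replicates 1 to 4 it had 138, 73.1, 136 and 125 CPM. Apart from Rfx2-/- replicate 2, which was below every other library, the knockout values lay within the wild type range. The log2 fold change was -0.28 (SE 0.20, edgeR adjusted p 0.375) with all libraries and -0.11 (SE 0.13, adjusted p 0.638) without that library. The 14 alternatives gave it adjusted p-values of 0.279 to 0.638. In wild type replicate 3, the lowest of its genotype, Tekt1 (-0.32), Tekt2 (-0.48), Tekt3 (-0.36) and Tekt4 (-0.53) also had low log2 levels relative to the other wild type libraries. So did Enkur (-0.44), Cfap45 (-0.24), Cfap53 (-0.22) and Cfap161 (-0.19), but not Cfap52 (0.03). Relative to the wild type mean, medians there were -0.67 for elongating spermatid, -0.46 for round spermatid and -0.05 for spermatocyte markers. The part of these shifts in the values of the members was not tested.

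The makeup of tektin mRNA differed between genotypes. Per kb of exons, the 5 tektins summed to 621 to 937 CPM in wild type libraries and 520.0 to 684 CPM in Rfx2-/- libraries. Tekt4 made up 27.4% ± 1.83 of this sum in wild type and 1.81% ± 0.314 in Rfx2-/- testes. The share of Tekt2 was 22.9% ± 0.744 and 40.5% ± 1.61, and that of Tekt3 was 15.6% ± 0.397 and 26.1% ± 0.862 (SD, 5 and 4 libraries). The shares of these 3 genes did not overlap between genotypes. Because the shares add up to the whole, the loss of Tekt4 alone raises those of the others. Tekt1 (24.1% ± 1.52 and 20.5% ± 2.36) and Tekt5 (9.41% to 11.2% and 7.77% to 13.6%) overlapped.

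**Figure D2:**
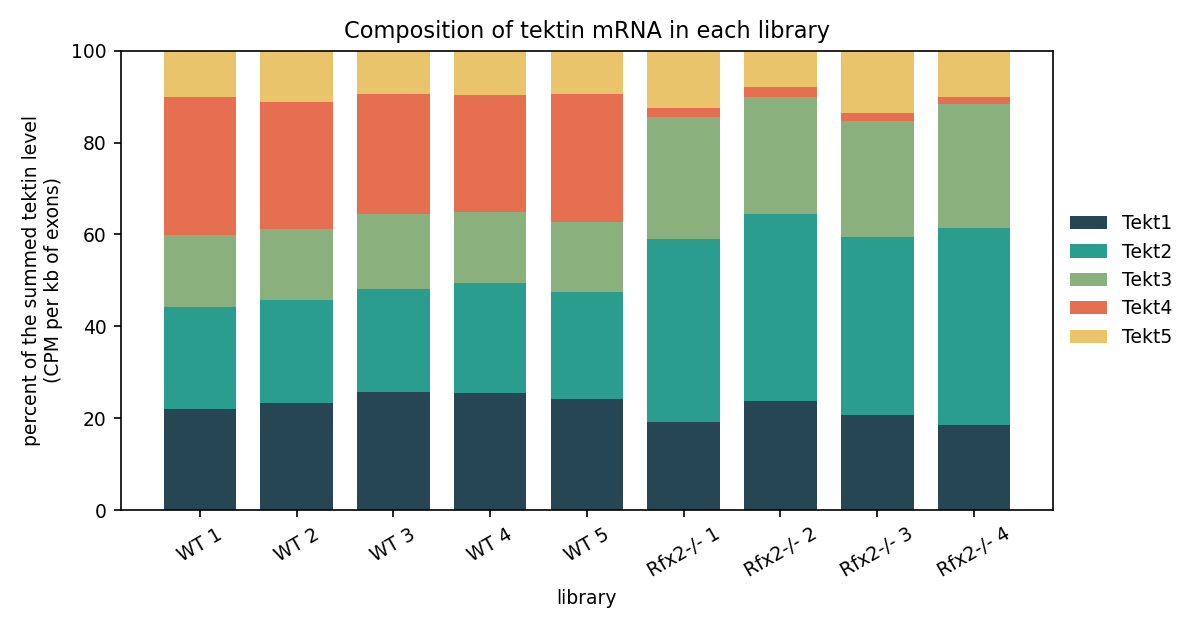
Share of each tektin in the summed tektin level (CPM per kb of exons, in percent) for each of the 5 wild type (WT) and 4 Rfx2-/- libraries. The Tekt4 segment spans 25.5% to 30.2% of the bar in wild type and 1.48% to 2.19% in Rfx2-/- libraries, and the Tekt2 segment is wider in every knockout library.

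Ratios between tektins within a library do not depend on scaling between libraries, and were used to test whether the tektins differed unequally. The log2 ratio of Tekt2 to Tekt1 counts was -0.10 to 0.11 in wild type and 0.88 to 1.30 in Rfx2-/- libraries, a difference of 1.06 (SE 0.10). For Tekt3 to Tekt1 the difference was 0.98 (SE 0.11), with -0.61 to -0.40 in wild type and 0.21 to 0.66 in Rfx2-/- libraries. For Tekt4 to Tekt1 it was -3.70 (SE 0.12). Genotypes were fully separated in these 3 ratios, which gave the smallest two-sided p that an exact permutation test of 5 against 4 libraries allows (p = 0.0159, adjusted p = 0.0181 over 8 ratios). Tekt5 to Tekt1 differed by 0.35 (SE 0.25, exact permutation p = 0.19), and by 0.58 (SE 0.12, exact permutation p = 0.0357) without Rfx2-/- replicate 2. Tekt1 was thus lower relative to Tekt2 and Tekt3 in each knockout library than in any wild type library.

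Of the other members, Cfap161 (chromosome 7, 83774101 to 83794880, minus strand), which encodes an A tubule inner protein, had the lowest level in Rfx2-/- testes. It had 85.7, 89.5, 84.6, 96.75 and 118 CPM in wild type replicates 1 to 5 and 2.62, 2.54, 1.57 and 2.94 CPM in Rfx2-/- replicates 1 to 4. The knockout values rested on 23 to 79 counts per library. The means differed 39.2-fold, and the log2 fold change was -5.28 (SE 0.21, edgeR adjusted p 1.38e-08). Only 42 of the 15613 genes tested, Cfap161 included, had a log2 fold change this low.

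Cfap53 (chromosome 18, 74283090 to 74359986, plus strand) encodes an A tubule inner protein also needed for left-right asymmetry. Its level was 115, 112.5, 107, 132 and 139.8 CPM in wild type replicates 1 to 5 and 7.01, 5.68, 2.66 and 3.47 CPM in Rfx2-/- replicates 1 to 4. The genotypes were far apart, although the knockout libraries varied among themselves with a coefficient of variation of 42.5%. The means differed 25.8-fold, and edgeR gave a log2 fold change of -4.66 (SE 0.28, adjusted p 2.91e-07). The knockout values rested on 39 to 211 counts per library.

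Cfap45 (chromosome 1, 172520801 to 172545870, plus strand), a B tubule inner protein, had 293, 283, 249, 279 and 319.7 CPM in wild type replicates 1 to 5 and 93.95, 90.5, 71.8 and 69.7 CPM in Rfx2-/- replicates 1 to 4. No knockout library approached the wild type range. A 3.50-fold difference in means was found, or -1.80 as a log2 fold change (SE 0.15, edgeR adjusted p 6.76e-06). Its exons share 3 bases with 4933439K11Rik on the opposite strand.

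Cfap52 (chromosome 11, 67924806 to 67965651, minus strand), a WD repeat protein of the B tubule, had 120.2, 138, 145, 141 and 172 CPM in wild type replicates 1 to 5. In Rfx2-/- replicates 1 to 4 it had 53.5, 24.9, 51.05 and 49.8 CPM, again without overlap but with replicate 2 well below the others. The log2 fold change was -1.67 (SE 0.22, edgeR adjusted p 2.85e-04), and -1.48 (SE 0.13, adjusted p 2.10e-06) without that library. Adjusted p-values of Cfap52 in the 14 alternatives lay between 2.11e-12 and 0.00200. In a test against a 2-fold change itself Cfap52 did not pass (edgeR adjusted p 0.0368), whereas the other 4 called members did. Cfap52 shares 194 exon bases with 9130017K11Rik on the opposite strand.

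Enkur (chromosome 2, 21180731 to 21205365, minus strand) encodes enkurin, a calmodulin-binding protein of the B tubule first described in sperm. It had 131, 136, 106, 155 and 154 CPM in wild type replicates 1 to 5 and 71.1, 96.75, 60.2 and 67.6 CPM in Rfx2-/- replicates 1 to 4. All knockout values were below the wild type range, and replicate 2 was the highest of them. The change, -0.88 on the log2 scale (SE 0.17, edgeR adjusted p 0.00571), was under the 2-fold limit. It was called without Rfx2-/- replicate 2 (-1.04, edgeR adjusted p 1.24e-04) and with a length trend removed (-1.05, adjusted p 1.96e-04), with adjusted p-values between 4.86e-05 and 0.0311 in the 14 alternatives.

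Relative to Enkur in the same library, the other 4 genes of this group were lower in Rfx2-/- testes. The difference in log2 ratio was -0.92 for Cfap45 (SE 0.13), -3.88 for Cfap53 (SE 0.25) and -4.41 for Cfap161 (SE 0.19). For Cfap52 it was -0.83 (SE 0.42), with -0.14 to 0.45 in wild type libraries and -1.95, -0.44, -0.41 and -0.24 in Rfx2-/- libraries. Without Rfx2-/- replicate 2, the library at -1.95, it was -0.44 (SE 0.13, exact permutation p = 0.0357, the smallest that 5 against 3 libraries allow). In each of the 4 ratios the genotypes did not overlap (exact permutation p = 0.0159, adjusted p = 0.0181). Among the 10 members, genes for A tubule proteins thus spread widely. Cfap53, Cfap161 and Tekt4 were 20.7-fold to 39.2-fold lower, Tekt1 was 1.59-fold lower, and Tekt2, Tekt3 and Tekt5 did not pass the test. The genes for the B tubule proteins CFAP45, CFAP52 and ENKUR were 1.85-fold to 3.50-fold lower. Genes for other proteins at the B tubule need not follow these 3, as Cfap20 of the inner junction had a log2 fold change of 0.03.

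**Figure D3:**
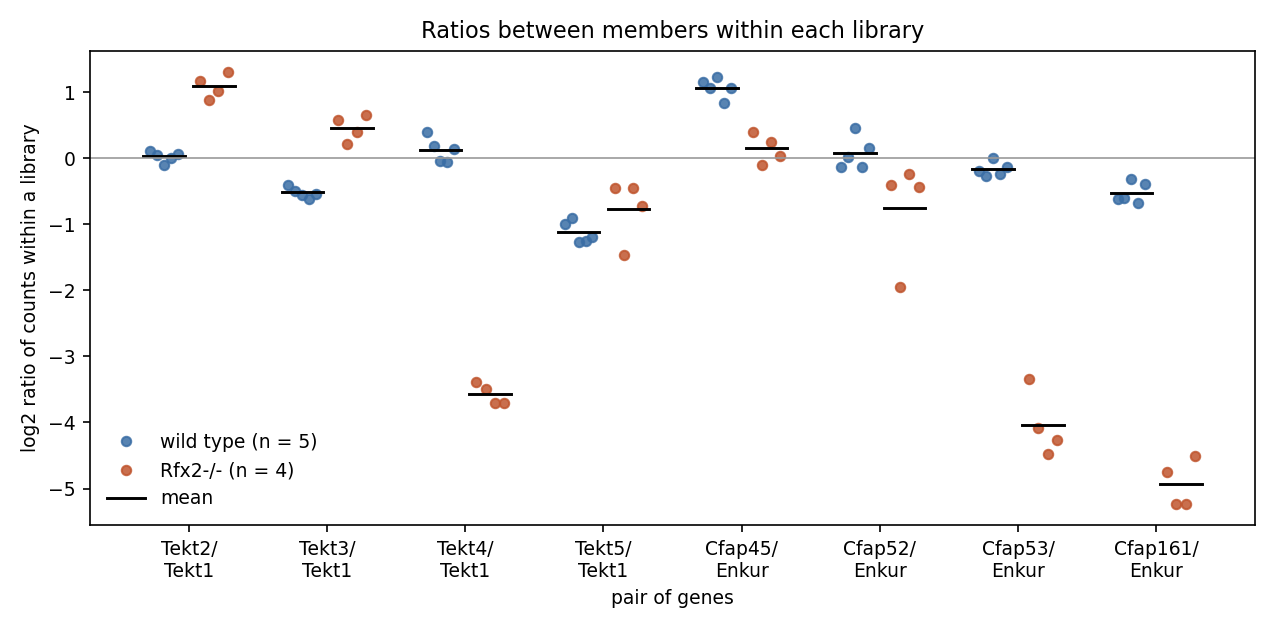
Log2 ratio of counts of 2 members within each library (0.5 added to each count) for 8 pairs, with 5 wild type (blue) and 4 Rfx2-/- (orange) points and a black line at the mean. Only the ratio of Tekt5 to Tekt1 overlaps between genotypes, and the ratio of Cfap52 to Enkur has 1 knockout library at -1.95.

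The order of the levels per kb of exons also differed. In wild type testes the order was Tekt4 (220.0 ± 38.2 CPM per kb), Tekt1 (192 ± 26.7), Tekt2 (183 ± 30.0), Tekt3 (124 ± 15.6), Enkur (114 ± 16.8), Cfap45 (112 ± 10), Tekt5 (79.4 ± 11.7), Cfap53 (64.2 ± 7.44), Cfap52 (61.8 ± 8.09) and Cfap161 (31.5 ± 4.51; SD, n = 5 each). Neighbours in that order overlapped in range except Cfap45 and Tekt5, and Cfap52 and Cfap161. Within libraries Tekt4 exceeded Tekt1 in 5 of 5, but barely in wild type replicates 3 (161.7 and 159.5) and 4 (212.9 and 212.6). In counts not divided by exon length, Tekt1 was the higher one in both (log2 ratio of Tekt4 to Tekt1 -0.04 and -0.06). In Rfx2-/- testes Tekt2 came first (241 ± 36.9), followed by Tekt3 (155 ± 23.7), Tekt1 (120.0 ± 5.98), Tekt5 (65.3 ± 16.8), Enkur (61.6 ± 13.3), Cfap45 (31.9 ± 4.91), Cfap52 (19.3 ± 5.76), Tekt4 (10.6 ± 1.19), Cfap53 (2.49 ± 1.06) and Cfap161 (0.802 ± 0.197; SD, n = 4 each). There the ranges of Tekt5 and Enkur and of Cfap52 and Tekt4 overlapped and all other neighbours were apart. The mRNA with the highest mean per kb of the 10 in wild type was therefore eighth in the knockout. The 5 members other than tektins together had 383 ± 40.6 CPM per kb in wild type and 116 ± 13.3 CPM per kb in Rfx2-/- testes.

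An exact promoter match did not separate the called members from the rest. Of the 4 called members with a promoter entry, Tekt4 and Cfap45 held an exact match to the stricter inverted repeat and Cfap52 and Cfap161 did not. Of the 5 members not called, Tekt2 and Enkur held it. These are counts of letters in a fixed window and say nothing about binding. They do not show that Cfap52 or Cfap161 lacks an X-box-like repeat, because near matches were not counted.

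Further proteins of the doublet lumen were taken from a list of 35 genes, of which 30 were matched and tested. In Rfx2-/- testes 9 of the 30 were called lower and 0 higher (10 and 0 by DESeq2), with a median log2 fold change of -0.23, or -0.39 without Rfx2-/- replicate 2. Of all genes tested, edgeR called 3.68% lower and 0.826% higher. At an unadjusted p under 0.05, 4 of the list were higher. At an adjusted p of 0.05 and any fold, 11 were lower (7.31% of all genes) and 3 higher (3.48% of all genes). The lowest was Cfap107 (1700012P22Rik in the annotation), with 50.2 ± 6.44 CPM in wild type (SD, n = 5) and 1 to 2 counts in each knockout library, a ratio of 754 with a 95% counting interval of 323 to 2320. Spag8 (-4.46) had a log2 fold change close to those of Tekt4 and Cfap53. Tektl1 (Ccdc105, -2.60), a tektin-like protein of the sperm flagellum, Saxo4 (Ppp1r32, -2.31), Cimip2b (Fam166b, -2.27), Cimip2a (Fam166a, -1.30), Cfap126 (-1.26) and Cfap95 (1700028P14Rik, -1.26) were also called, with edgeR adjusted p-values from 0.00280 for Cimip2b to 3.41e-09 for Cfap107. Cimip2b was scarce, at 1.22 ± 0.441 CPM in wild type (SD, n = 5).

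Other inner proteins of the same lumen were not called. Cfap20 (log2 fold change 0.03, edgeR adjusted p 0.914), a protein of the inner junction that closes the B tubule, is an example chosen after its values were seen. Mns1 (0.72, adjusted p 0.00800), Ribc2 (0.82, adjusted p 0.00554) and Pierce1 (0.83, adjusted p 0.0124), also chosen after their values were seen, were higher by less than 2-fold. In these 3 genes every knockout library was above every wild type library, as in 6.16% of all genes. Cfap144 (Fam183b, -1.36, edgeR adjusted p 0.0192) and Cfap90 (1700001L19Rik, -0.85, adjusted p 0.0215) were lower at an adjusted p of 0.05 but not called. Genes of one structure thus ranged from nearly absent to higher than wild type. Without Rfx2-/- replicate 2, 11 of the list were called lower and without Rfx2-/- replicate 4, 7.

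**Figure D4:**
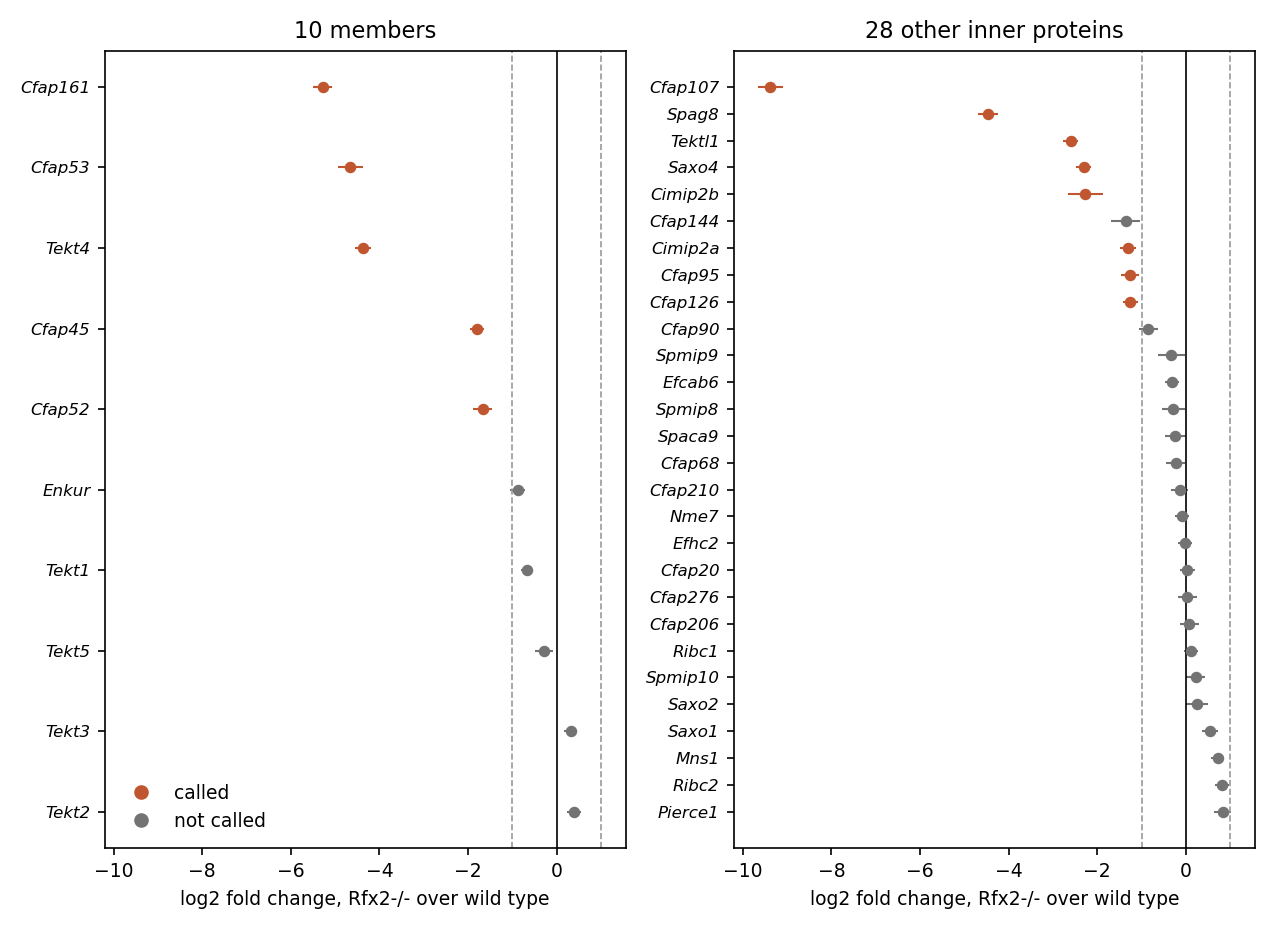
Log2 fold change of Rfx2-/- over wild type for the 10 members (left) and 28 other inner proteins (right), with bars of 1 SE, called genes in orange, others in grey and dashed lines at a 2-fold change. Both panels hold genes from -4.46 or below up to values above 0, and Cfap107 at -9.38 rests on 1 to 2 counts in each knockout library.

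Markers of testis cell types were examined beside these results. Of 14 elongating spermatid markers, 13 were below 0 with a median log2 fold change of -0.66, 0 were called by edgeR (3 by DESeq2) and 5 were lower at an adjusted p of 0.05, or 10 at an unadjusted p under 0.05. Without Rfx2-/- replicate 2 the median was -0.80, and 5 were called lower by edgeR. Their summed level was 12200 to 24000 CPM in wild type and 10600 to 14700 CPM in Rfx2-/- libraries. The paper reports that Rfx2-/- spermatids arrest before they elongate, and that transition protein mRNAs are already present in late round spermatids. Levels of this list therefore do not measure elongating cells in the knockout. Round spermatid markers had a median of 0.20 (4 of 12 below 0), with 1 higher at an adjusted p of 0.05 and 4 at an unadjusted p under 0.05. Their summed level was 1430 to 2300 CPM in wild type and 1790 to 2620 CPM in Rfx2-/- libraries. Spermatocyte markers had a median of 0.56 (2 of 12 below 0), with 1 higher at an adjusted p of 0.05, and 7 higher and 1 lower at an unadjusted p under 0.05. Their summed level was 5290 to 6470 CPM in wild type and 5510 to 9980 CPM in Rfx2-/- libraries. The upper end was Rfx2-/- replicate 2, without which the median was 0.26 and the knockout libraries reached 7080 CPM. The part of these differences in the results of the members was not tested.

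Medians of the remaining lists were 0.12 for spermatogonia, 0.33 for Sertoli cell, 0.20 for Leydig cell and 0.53 for macrophage markers, and neither edgeR nor DESeq2 called a gene of these lists. At an adjusted p of 0.05, 1 Sertoli cell marker was higher, and at an unadjusted p under 0.05, 3 Sertoli cell, 1 Leydig cell and 2 macrophage markers were. Their summed levels were 151 to 180, 1200 to 1500, 702 to 900.0 and 54.6 to 84.4 CPM in wild type and 141 to 215, 1230 to 1780, 674 to 1070 and 66.9 to 188 CPM in Rfx2-/- libraries. Without Rfx2-/- replicate 2 the medians were -0.02, 0.23, -0.13 and 0.22, and the macrophage sum reached 92.9 CPM in place of 188 CPM. Multiciliated cells, whose axonemes also hold inner proteins of the doublet, could enter a testis sample from the efferent ducts. Of 7 markers of these cells, 5 were not tested in edgeR because of low counts. Mcidas, Gmnc, Sntn and Tmem212 averaged under 1 CPM in both genotypes, and Cdhr3, called higher by DESeq2 without that filter, averaged 0.217 and 1.76 CPM. Deup1 (-0.84, edgeR adjusted p 0.00439) and Cdc20b (-0.66, adjusted p 0.0495) were lower by less than 2-fold. Deup1 was far more abundant than every other marker of this list, with a wild type mean of 260.8 CPM and a knockout mean of 146.1 CPM. For Cdc20b these means were 8.7 and 5.5 CPM. Which cells of the sample held the Deup1 mRNA was not tested. When Rfx2-/- replicate 2 was left out, Cdc20b no longer passed and Cdhr3 was tested and called higher by edgeR.

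Finally, the gene outside the group whose profile over the 9 libraries was most like that of a member was identified for 9 of the members, by the root mean square difference in log2 CPM after subtraction of the wild type mean. The closest genes were 2210408I21Rik for Tekt1 (0.05), Tmem246 for Tekt3 (0.08), Tns1 for Tekt5 (0.06) and Ppil6 for Enkur (0.10). For the called members they were Lrrc43 for Tekt4 (0.23), Pp2d1 for Cfap45 (0.13), Cep128 for Cfap52 (0.15), Sh2d6 for Cfap53 (0.12) and Spef2 for Cfap161 (0.26). Spef2 encodes a protein of the central apparatus of the sperm axoneme. The profiles share the same libraries, and the difference between genotypes dominates those of the called members. For Tekt5 the log2 fold change was -0.28, while Rfx2-/- replicate 2 lay at -0.86 relative to the other knockout libraries.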

How the data were processed

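The authors deposited raw counts, in whole numbers, for 23074 genes with Ensembl IDs. The submitters' processing notes name CASAVA 1.8.2, STAR 2.4, featureCounts 1.4.6 and GRCm38, and per the methods, reads with several genomic positions and reads overlapping exons of different genes were not counted. The use of strand is not given in the sources used here.

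GENCODE M21 supplied names and positions and held 96.6% of the gene IDs. No 50-base window of the members' coding transcripts occurred, read in the same direction, in a transcript of another gene. The opposite strand was not searched, and Tekt2, Cfap52 and Cfap45 share exon bases with other genes there. Genotypes were compared by quasi-likelihood in edgeR 4.0.16 (R 4.3.3, TMM factors, filterByExpr, genotype as the single factor, Benjamini-Hochberg adjustment over 15613 genes), and DESeq2 1.42.0 was an alternative. On simulated counts for 15412 genes, 96 of 100 genes changed 4-fold and 100 of 100 changed 8-fold were recovered, with 1 false call. The simulated counts were drawn with the fitted dispersions and held no gene length shift such as that of Rfx2-/- replicate 2. Their number of false calls therefore need not hold for the real libraries. Ratios had 0.5 added to each count and were compared by two-sided exact permutation tests. Libraries of a genotype differed by a chi-square of 4.52 per gene or more, so each counted as 1 replicate. A count of 3 corresponded to 0.0996 to 0.234 CPM. Intervals from counts include no error of library preparation, as reads here carry no molecular identifiers.

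Named genes were the 10 members, Rfx2, every called gene of the inner protein list and, for each member, the outside gene with the most similar profile. Results of 3 genes that this rule or the inner protein list holds are not reported here. Members and lists were chosen with earlier results of these data known. Alternatives were total counts, DESeq2 size factors, DESeq2, all genes with at least 1 count, removal of a length trend, a test against a 2-fold change, 1 added to ratio counts, and leaving out each library. The table held 0 other columns of per-sample values.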

Additional observations from a re-analysis of the deposited data

Results flagged for a closer look

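For the levels of the members and of Rfx2 and for the within-library ratios, the gap between the highest or lowest library of a genotype and its nearest neighbour was divided by the range of that genotype (Dixon's test). Of 38 groups of libraries 3 were outlying, where chance flags about 1 in 20, or 1.9. The groups are not independent, because the ratios use the same counts as the levels. Cfap52 in Rfx2-/- replicate 2 was flagged both as a level and within a ratio.

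Tekt5 was at 107.1 CPM in wild type replicate 3, and the other 4 wild type libraries ranged from 144.8 to 159.4 CPM. Cfap52 was at 24.94 CPM in Rfx2-/- replicate 2, with 49.78 to 53.50 CPM in the 3 remaining knockout libraries. In the same library the log2 ratio of Cfap52 to Enkur was -1.954, and elsewhere in the knockout it was -0.4406 to -0.2373.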

How the results depend on the processing

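The call of each of the 5 lower members was kept with total counts, DESeq2 size factors, the DESeq2 Wald test, all genes with at least 1 count, a length trend removed and each library left out. The number of lower members was 4 to 6 over these settings and a test against a 2-fold change, with Cfap52 lost in that test (edgeR adjusted p 0.0368) and Enkur added with the length trend removed (-1.05) and without Rfx2-/- replicate 2 (-1.04). No member changed sign. A test against a 2-fold change called 5 other inner proteins lower in place of 9, and 272 genes lower and 29 higher over all genes in place of 575 and 129, and the DESeq2 Wald test called 211 genes higher. Without Rfx2-/- replicate 2 the difference in the ratio of Cfap52 to Enkur was -0.44 in place of -0.83. Total counts moved the median log2 fold change of all genes from 0.03 to 0.16, and 2 members, Tekt2 and Tekt3, were then higher at an adjusted p of 0.05. The ratio of Tekt5 to Tekt1 passed p 0.05 without Rfx2-/- replicate 2 (0.58, exact permutation p = 0.0357), and its difference over the omissions of 1 library ranged from 0.24 to 0.58. With 1 library left out of Rfx2-/-, the smallest exact p was 0.0357. Counts limit the precision for Cfap161 and Cfap53, with 23 and 39 counts in the lowest knockout library. No paired analysis was possible because the replicate numbers are only names.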
